A study of Mus musculus with 18 samples.

Results

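The genes described here make, break down or sense prostanoids and leukotrienes, the lipid mediators that cells form from arachidonic acid. They were the rows of both deposited count tables with the symbols Ptgs1, Ptgs2, Ptges, Hpgds, Hpgd, Ptger2, Ptger4, Alox5, Alox5ap and Ltc4s. All 10 were found among the 23052 gene symbols of each table, and all 10 passed the filter on low counts, which kept 12492 genes in 1 table and 12506 in the other.

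RNA was sequenced in 18 libraries of bone marrow-derived macrophages from wild-type C57BL6/J mice, grown for 7 days in DMEM (80%) to which medium conditioned by L929 cells (20%) was added. L929 cells are a mouse fibroblast line whose medium supplies the growth factor that turns marrow cells into macrophages. In the endotoxin-tolerant set, cells made hyporesponsive to endotoxin were kept with α-ketoglutarate (AKG) and no glutamine, without glutamine, or with glutamine, 4 libraries per group. In the stimulation set, cells were given IL-4 for 6 h, given LPS for 6 h or left as controls, 2 libraries per group. Not given in the sources used here were the doses, the tolerizing regime, the age and sex of the mice and whether replicates came from separate mice or cultures, so the p-values measure only the spread between these libraries. All groups are bulk cultures differentiated in the same way, and in bulk RNA fewer cells of a type and less RNA per cell cannot be told apart. The tables were normalised separately, so tests were made within a table only.

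Libraries held 28302158 to 39760356 counts. Replicates 1 and 2 of the tolerant set stood apart from replicates 3 and 4 in every group, a difference the labels do not name, here called the batch. With batch as a term, 6998 of 12492 genes differed between them, 6 of the 10 genes among them. Relative to replicates 1 and 2, replicates 3 and 4 had higher Ptges (log2 difference 0.98, SE 0.08) and lower Ltc4s (-1.50, SE 0.24), Alox5 (-1.28, SE 0.12), Ptger4 (-1.02, SE 0.09), Hpgds (-0.96, SE 0.31) and Alox5ap (-0.22, SE 0.06). For Ptges, Ltc4s, Alox5, Ptger4 and Hpgds the tests that ignore the batch carry a large spread. In the tolerant set, tests with the replicate number as a block are therefore given wherever they change a call of the 10 genes. The 11 macrophage markers, such as Adgre1 and Csf1r, were detected in every group. Their summed level ran from 30400 to 47900 CPM (counts scaled to a library of 1e6) in the tolerant set and from 27900 to 39400 CPM in the stimulation set.

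Prostanoid synthesis begins when phospholipases free arachidonic acid and the cyclooxygenases, encoded by Ptgs1 and Ptgs2, turn it into prostaglandin H. Terminal synthases then make the separate prostaglandins: Ptges encodes the inducible microsomal prostaglandin E synthase and Hpgds the haematopoietic prostaglandin D synthase. Hpgd encodes the dehydrogenase that inactivates prostaglandin E, and Ptger2 and Ptger4 encode the EP2 and EP4 receptors through which prostaglandin E raises cyclic AMP. In the other branch Alox5 encodes 5-lipoxygenase, Alox5ap the membrane protein that presents arachidonic acid to it, and Ltc4s the synthase that starts the cysteinyl leukotrienes. Macrophages are a major source of both kinds of mediator, and LPS is a classic inducer of the prostaglandin E arm.

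The promoters of Ptgs2, Ptges, Ptgs1 and Hpgd are shown because these genes had the widest differences between stimulated groups, the first pair being highest and the other pair lowest with LPS. Each runs from 250 bases before to 50 bases after the RefSeq start site on GRCm38.p6, 5′ to 3′ on the strand of the gene, and capitals mark matches of the motifs named after them. The windows are chr1:150099781-150100080 (plus strand) for Ptgs2, chr2:30903248-30903547 (minus strand) for Ptges, chr2:36230176-36230475 (plus strand) for Ptgs1 and chr8:56294302-56294601 (plus strand) for Hpgd.
Ptgs2: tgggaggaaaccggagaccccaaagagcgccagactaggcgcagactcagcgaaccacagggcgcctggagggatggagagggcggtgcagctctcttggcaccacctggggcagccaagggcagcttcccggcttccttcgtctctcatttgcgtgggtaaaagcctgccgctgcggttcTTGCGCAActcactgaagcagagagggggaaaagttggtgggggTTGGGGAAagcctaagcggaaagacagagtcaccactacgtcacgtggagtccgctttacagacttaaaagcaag
Ptges: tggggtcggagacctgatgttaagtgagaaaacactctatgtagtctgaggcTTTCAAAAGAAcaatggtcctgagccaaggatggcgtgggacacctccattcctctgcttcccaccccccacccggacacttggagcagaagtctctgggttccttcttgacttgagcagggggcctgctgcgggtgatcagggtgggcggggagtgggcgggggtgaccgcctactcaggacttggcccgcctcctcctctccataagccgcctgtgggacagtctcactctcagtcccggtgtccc
Ptgs1: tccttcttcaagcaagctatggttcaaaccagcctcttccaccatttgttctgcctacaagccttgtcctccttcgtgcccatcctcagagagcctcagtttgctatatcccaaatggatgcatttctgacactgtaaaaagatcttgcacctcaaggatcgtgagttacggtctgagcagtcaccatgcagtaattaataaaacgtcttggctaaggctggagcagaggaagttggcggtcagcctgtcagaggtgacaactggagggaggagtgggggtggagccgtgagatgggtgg
Hpgd: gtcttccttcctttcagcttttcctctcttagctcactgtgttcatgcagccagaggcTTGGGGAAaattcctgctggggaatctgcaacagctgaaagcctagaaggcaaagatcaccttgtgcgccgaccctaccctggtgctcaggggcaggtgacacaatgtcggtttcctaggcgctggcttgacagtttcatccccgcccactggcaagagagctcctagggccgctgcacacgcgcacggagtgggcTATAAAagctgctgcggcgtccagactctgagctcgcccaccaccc

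Both strands were searched for TTNNGNAA, for TTC and GAA set 4 bases apart, for TTCNNNGAA, TATAAA, TGACGTCA and the NF-κB consensus. Ptgs2 held TTNNGNAA at bases -69 to -62 and -25 to -18, counted from 1 at the start site and from -1 before it. Ptges held TTC and GAA 4 bases apart at -197 to -188, overlapping TTNNGNAA at -198 to -191 on the opposite strand. Hpgd held TTNNGNAA at -192 to -185 and TATAAA at 5 to 10, and Ptgs1 held no match to any of them. The Hpgd positions hold for the RefSeq start only. GENCODE starts Hpgd at chr8:56294585, inside the window and downstream of TATAAA, so counted from there TATAAA lies before the start. TTNNGNAA occurs in 40.7% of 32851 RefSeq promoters of this length, the pair 4 bases apart in 6.95% and TATAAA in 13.6%. TTCNNNGAA occurs in 8.3%, TGACGTCA in 1.79% and the NF-κB consensus in 8.46%, and the windows of the 9 genes with an entry held none of the 3. A match describes letters in the window and says nothing about binding.

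Levels of different genes were set side by side as CPM per kilobase of exon. The length was that of the joined exons of all annotated transcripts of a gene. Which transcripts were expressed was not tested, and the ranks depend on it. Alox5ap was the most abundant of the 10 in 5 of the 6 groups, with 139 ± 0.0498 with IL-4 and 265 ± 26.9 in controls in the stimulation set (SD, n = 2 each). In the tolerant set it had 235 ± 19.9 with AKG and no glutamine, 185 ± 16.8 without glutamine and 258 ± 38.6 with glutamine (SD, n = 4 each). LPS was the exception, where Ptges led at 501 ± 113 per kilobase, ahead of Alox5ap at 129 ± 10.6 and Ptgs2 at 125 ± 27.5 (SD, n = 2 each). The gene for the enzyme that Alox5ap serves was far lower and ranked 7 of 10 in controls and 9 or 10 in the other groups: Alox5 had 0.280 per kilobase with IL-4, 0.212 with LPS and 1.74 in controls, and 0.493, 0.524 and 1.17 in tolerant cells with AKG and no glutamine, without glutamine and with glutamine. Hpgds was second to Alox5ap in all 3 tolerant groups, at 27.9 to 35.5 per kilobase.

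**Figure D1:**
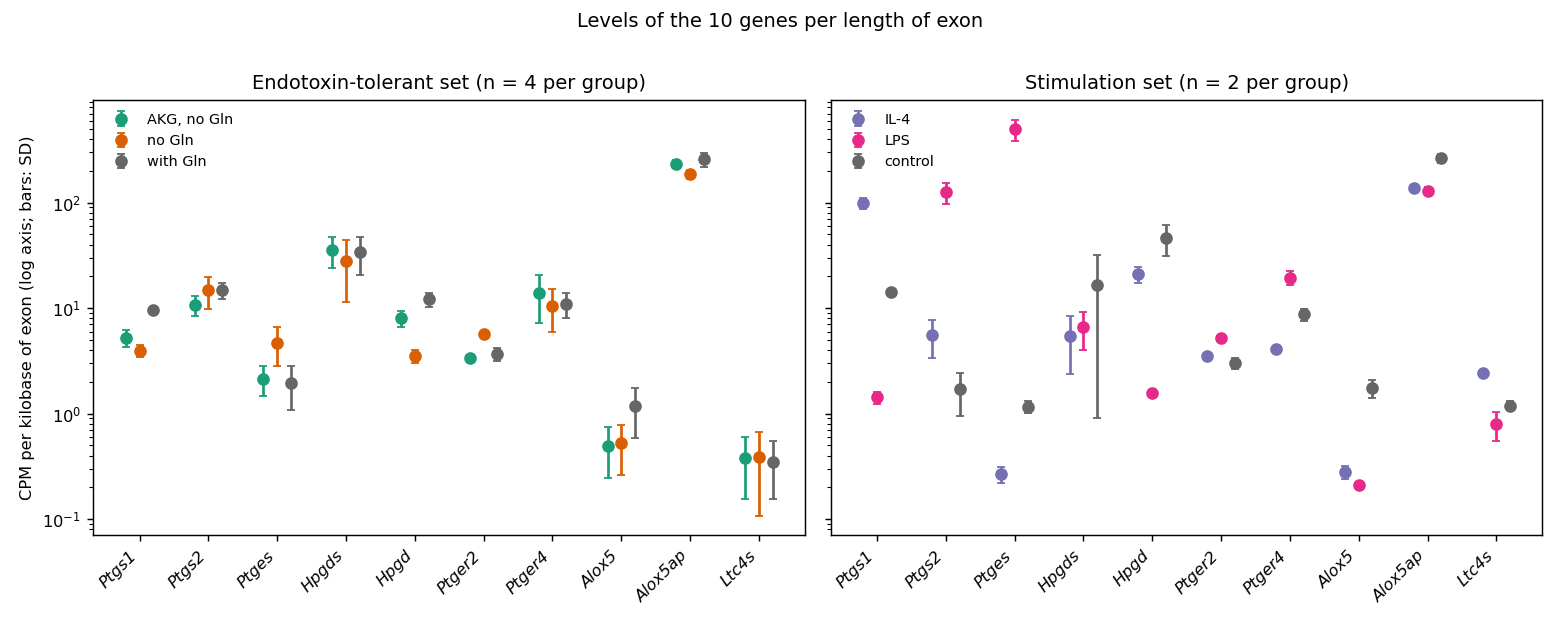
Mean CPM per kilobase of exon of the 10 genes (log axis), with SD as bars, in the tolerant groups (left, n = 4 each) and the stimulation groups (right, n = 2 each). Alox5ap is the highest point in every group except LPS, where Ptges reaches 501, and Alox5 and Ltc4s lie lowest in the tolerant set.

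The tolerant set asks which transcripts depend on glutamine and which of these differences are smaller when AKG, a metabolite made from glutamine, is supplied in its place. Without glutamine, as against with glutamine, the cyclooxygenase gene Ptgs1 fell 2.43-fold, the prostaglandin dehydrogenase gene Hpgd fell 3.47-fold, Alox5ap fell 1.39-fold and the receptor gene Ptger2 rose 1.55-fold. These were 4 of the 10 genes, against 4.7% of all 12492 genes tested. With the replicate block Ptges also rose and Alox5 also fell, which made 6 of 10 against 21.7% of all genes. Libraries without and with glutamine did not overlap for 5 of the 10 genes, against 12.4% of all genes. With AKG, as against without glutamine, Hpgd rose 2.30-fold and Ptger2 fell 1.70-fold, 2 of 10 genes against 1.49% of all genes. With the block Alox5ap also rose and Ptges also fell, 4 of 10 against 15.3%. Between AKG and glutamine edgeR called none of the 10 and 0% of all genes, with 3 of the 10 and 916 genes at an unadjusted p under 0.05. DESeq2 called 2 of the 10 and 232 genes there, and the block 3 of the 10 and 876 genes (7.01%). Each group enters 2 of these 3 comparisons, so their values are given side by side and not related to each other.

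**Figure D2:**
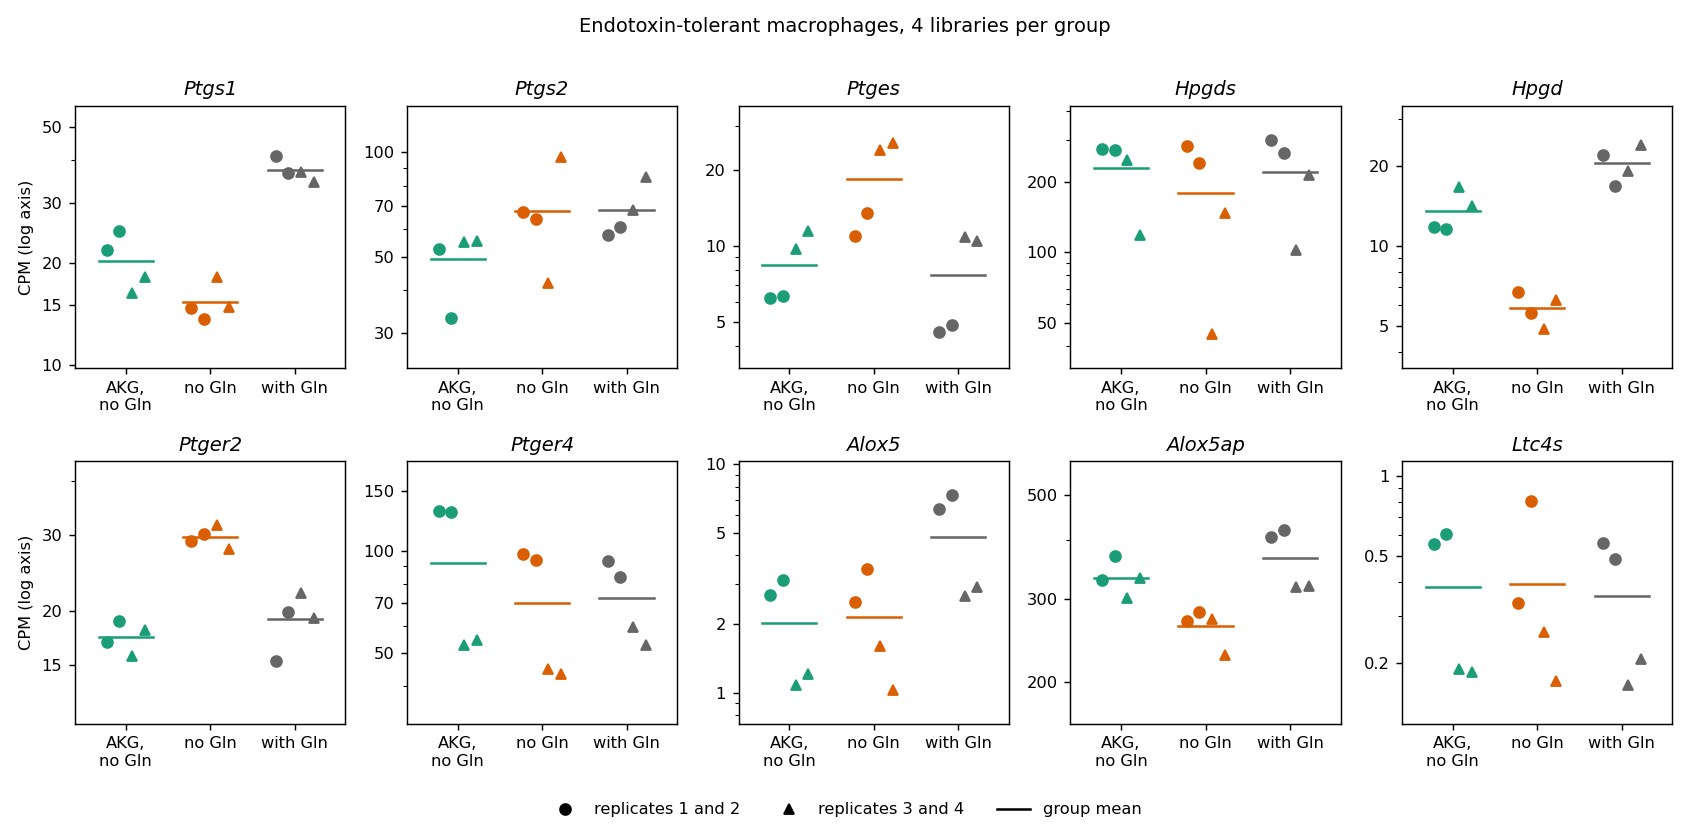
CPM of the 10 genes in each of the 12 tolerant libraries (log axes), with AKG and no glutamine at the left, without glutamine in the middle and with glutamine at the right. Circles are replicates 1 and 2, triangles replicates 3 and 4 and lines group means. The groups without and with glutamine do not overlap for Ptgs1, Hpgd, Ptges, Ptger2 and Alox5ap.

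Among the cyclooxygenase genes, Ptgs1 (chr2:36230426-36252272, plus strand, GRCm38) differed with glutamine and Ptgs2 (chr1:150100031-150108227, plus strand) did not pass in any tolerant comparison. Ptgs1 had 21.8, 24.7, 16.2 and 18.2 CPM with AKG and no glutamine, 14.7, 13.7, 18.2 and 14.8 CPM without glutamine, and 41.2, 36.6, 36.9 and 34.6 CPM with glutamine, in the order of replicates 1 to 4. All 4 glutamine libraries lay above the other 8, and the other two groups overlapped. The log2 fold change was -1.28 (SE 0.13, adjusted p = 0.0017) without against with glutamine. It was 0.40 (SE 0.13, adjusted p = 0.20) for AKG against no glutamine, 0.72 (adjusted p = 0.00050) in replicates 1 and 2 alone and 0.07 (adjusted p = 0.82) in replicates 3 and 4 alone. For AKG against glutamine it was -0.88 (SE 0.13, adjusted p = 0.072), which passed with the block (-0.89, adjusted p = 0.0046), in each batch alone, with DESeq2 and under scaling by library totals.

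Ptgs2 is the cyclooxygenase that inflammatory signals induce. It had 52.5, 33.3, 55.0 and 55.4 CPM with AKG and no glutamine, 67.4, 64.1, 41.9 and 97.1 CPM without glutamine, and 57.7, 60.9, 68.2 and 85.0 CPM with glutamine. The groups without and with glutamine were interleaved, with means of 67.6 ± 22.7 and 67.9 ± 12.2 CPM (SD, n = 4 each), and every AKG library lay below every glutamine library. The log2 fold changes were -0.01 (SE 0.24, adjusted p = 0.99) without against with glutamine, -0.46 (SE 0.24, adjusted p = 0.48) for AKG against no glutamine and -0.47 (SE 0.24, adjusted p = 0.80) for AKG against glutamine. Per kilobase of exon Ptgs2 was still above Ptgs1 in all 3 tolerant groups, at 10.7, 14.8 and 14.8 against 5.21, 3.95 and 9.61 with AKG and no glutamine, without glutamine and with glutamine.

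Of the terminal synthases, Ptges (chr2:30889471-30929863, minus strand) moved with both glutamine and the batch. It had 6.23, 6.31, 9.69 and 11.5 CPM with AKG and no glutamine, 11.0, 13.5, 23.9 and 25.6 CPM without glutamine, and 4.58, 4.85, 10.9 and 10.4 CPM with glutamine. Within each batch both libraries without glutamine were above every library of the other groups, and in each group replicates 3 and 4 were higher. The log2 fold change without against with glutamine was 1.27 (SE 0.38, adjusted p = 0.089). With the block Ptges rose by 1.28 (SE 0.10, adjusted p = 4.2e-05), and the batches gave 1.37 in replicates 1 and 2 and 1.24 in replicates 3 and 4. AKG against no glutamine gave -1.13 (SE 0.38, adjusted p = 0.19), and with the block Ptges fell by 1.10 (SE 0.10, adjusted p = 0.00037). AKG against glutamine gave 0.13 (SE 0.37) without the block and 0.19 (SE 0.10, adjusted p = 0.41) with it.

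Hpgds (chr6:65117293-65144908, minus strand) passed in no tolerant comparison and varied widely between replicates. It had 275, 272, 248 and 118 CPM with AKG and no glutamine, 285, 241, 44.8 and 147 CPM without glutamine, and 300.3, 265, 102 and 213 CPM with glutamine. All 3 groups overlapped, and the lowest value in the groups without and with glutamine was that of replicate 3. The log2 fold changes were -0.30, 0.35 and 0.05 without against with glutamine, for AKG against no glutamine and for AKG against glutamine, each with an SE of 0.50 or 0.51.

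Hpgd (chr8:56294585-56321043, plus strand), which ends prostaglandin E signals, was ordered by group in all libraries. It had 11.8, 11.6, 16.6 and 14.1 CPM with AKG and no glutamine, 6.73, 5.63, 4.87 and 6.29 CPM without glutamine, and 21.9, 16.8, 19.0 and 23.9 CPM with glutamine. No 2 groups overlapped, and AKG lay between the others. Hpgd fell by 1.79 on the log2 scale (SE 0.16, adjusted p = 0.00052) without against with glutamine. It rose by 1.20 (SE 0.16, adjusted p = 0.0063) with AKG against no glutamine. For AKG against glutamine the log2 fold change was -0.59 (SE 0.15, adjusted p = 0.21), and with the block Hpgd fell (-0.59, SE 0.13, adjusted p = 0.028).

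The receptor gene Ptger2 (chr14:44988195-45003820, plus strand) had the smallest SE of the 10. It had 16.9, 19.0, 15.7 and 18.1 CPM with AKG and no glutamine, 29.1, 30.2, 31.6 and 27.7 CPM without glutamine, and 15.4, 19.9, 22.0 and 19.3 CPM with glutamine. Every library without glutamine was above the other 8, and the AKG and glutamine groups overlapped. Ptger2 rose by 0.63 on the log2 scale (SE 0.11, adjusted p = 0.0095) without against with glutamine and fell by 0.77 (SE 0.11, adjusted p = 0.0082) with AKG against no glutamine. For AKG against glutamine the difference was -0.14 (SE 0.11, adjusted p = 1). The other prostaglandin E receptor gene, Ptger4 (chr15:5206661-5244187, minus strand), passed in none of the 3. It had 131, 130, 52.8 and 54.5 CPM with AKG and no glutamine, 98.0, 94.0, 44.7 and 43.2 CPM without glutamine, and 93.5, 83.6, 59.6 and 52.8 CPM with glutamine. In replicates 1 and 2 the AKG libraries were the highest, and in replicates 3 and 4 the AKG and glutamine libraries lay together at 52.8 to 59.6 CPM. Within each batch both AKG libraries were above both libraries without glutamine. That difference was 0.40 on the log2 scale (SE 0.39, adjusted p = 0.77), and 0.37 with the block (SE 0.12, adjusted p = 0.069). For AKG against glutamine the log2 fold change was 0.56 (adjusted p = 0.00038) in replicates 1 and 2 alone and -0.04 in replicates 3 and 4 alone, and the pooled value was 0.35 (SE 0.39, adjusted p = 1).

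In the leukotriene arm Alox5 (chr6:116410077-116461178, minus strand) was sparse. It had 2.68, 3.11, 1.08 and 1.21 CPM with AKG and no glutamine, 2.51, 3.47, 1.60 and 1.03 CPM without glutamine, and 6.35, 7.36, 2.65 and 2.92 CPM with glutamine, from 30 to 270 counts a library. Within each batch both glutamine libraries were above every other library, while the groups overlap when the batches are pooled. Without against with glutamine the log2 fold change was -1.16 (SE 0.49, adjusted p = 0.24), and with the block Alox5 fell by 1.15 (SE 0.14, adjusted p = 0.00043). With AKG against glutamine it was -1.25 (SE 0.49, adjusted p = 0.54), and with the block Alox5 fell by 1.26 (SE 0.14, adjusted p = 0.00077). AKG against no glutamine gave -0.10 (SE 0.49, adjusted p = 0.97; 0.69 with the block).

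Alox5ap (chr5:149264767-149288153, plus strand) had 329, 370, 301 and 332 CPM with AKG and no glutamine, 269.7, 282, 273 and 228 CPM without glutamine, and 406, 421, 318 and 320.4 CPM with glutamine. The group without glutamine lay below the other 8 libraries. It fell by 0.48 (SE 0.12, adjusted p = 0.039) without against with glutamine on the log2 scale. That call was lost when any of the 8 libraries of the comparison was left out (adjusted p = 0.053 to 0.12) and kept with the block (adjusted p = 0.0028). Without a filter, with only the 2 groups and in replicates 3 and 4 alone, 3 of the 4 calls of this comparison were kept. For AKG against no glutamine the value for Alox5ap was 0.34 (SE 0.12, adjusted p = 0.20), and with the block Alox5ap rose (0.34, SE 0.08, adjusted p = 0.020). Ltc4s (chr11:50236461-50238616, minus strand) had 5 to 27 counts a library, 0.166 to 0.809 CPM, and no difference between tolerant groups was detectable at this depth.

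**Figure D3:**
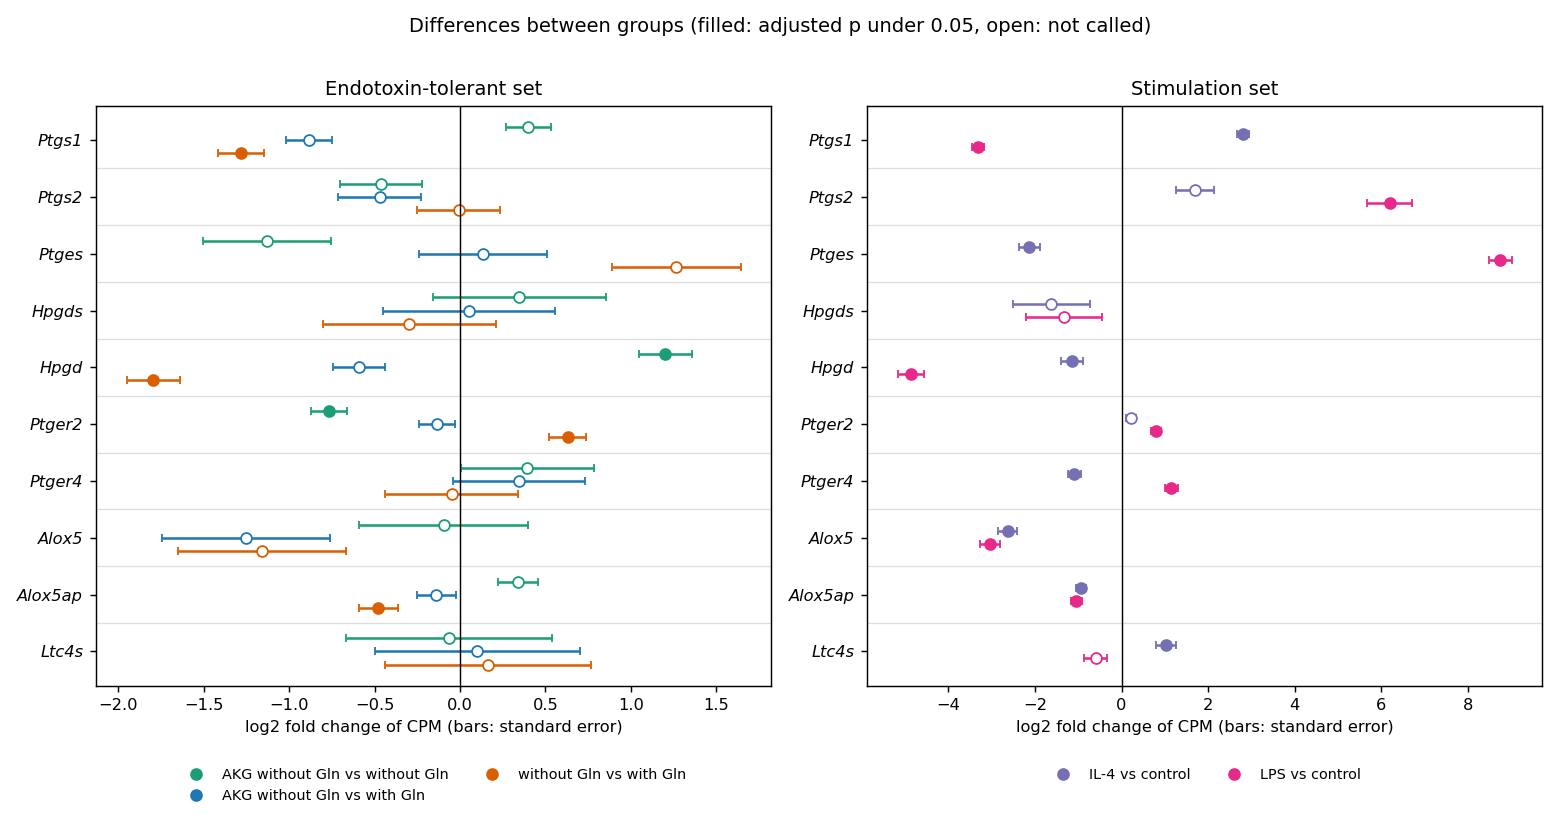
Log2 fold changes of the 10 genes with SE as bars, in the 3 tolerant comparisons (left) and in IL-4 and LPS against controls (right), without the block. Filled points have an adjusted p under 0.05: Ptgs1, Hpgd, Ptger2 and Alox5ap for glutamine, Hpgd and Ptger2 for AKG against no glutamine, and none for AKG against glutamine, while Ptges with LPS reaches 8.75.

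Of 61 further genes of the pathway, listed by role, 41 were tested in the tolerant set. Without against with glutamine 3 of them rose and 0 fell (7.32%, against 4.7% of all genes), at a median log2 fold change of -0.05 against -0.01 over all genes. Ptgir, the prostacyclin receptor gene, rose by 1.25 (SE 0.24, adjusted p = 0.015), with means of 22.1 CPM without and 9.28 CPM with glutamine. Pla2g12a, a secreted phospholipase gene, rose by 0.44 (SE 0.11, adjusted p = 0.047), and Ptges2, a second prostaglandin E synthase gene, by 0.32 (SE 0.07, adjusted p = 0.028). With AKG against no glutamine Ptges2 fell by 0.35 (SE 0.07, adjusted p = 0.037) and 0 of the 41 rose. These calls were not stable: the count of 3 was 1 without a filter and with only the 2 groups, 8 with DESeq2, 1 without replicate 1 or 4 with glutamine or replicate 1 or 3 without glutamine, and 0 when replicate 2 without glutamine was left out. The Ptges2 call for AKG was lost without a filter, with only the 2 groups and in replicates 3 and 4 alone. Leaving out 1 library also lost it for replicates 1, 2 or 3 of the group without glutamine and for each AKG library. With the block 6 of the 41 were higher and 9 lower for glutamine, against 21.7% of all genes in either direction. For AKG against no glutamine 6 were higher and 5 lower, against 15.3% of all genes. For AKG against glutamine 1 was higher and 3 lower, against 7.01% of all genes. With the block, and named here after their values were seen, Tbxas1, the thromboxane synthase gene, fell by 0.31 (adjusted p = 0.017) without against with glutamine and rose by 0.38 (adjusted p = 0.011) with AKG against no glutamine, and Slco2a1, the prostaglandin uptake carrier gene, fell by 1.83 (adjusted p = 0.00040) without glutamine. Without the block neither passed: Tbxas1 had -0.31 (adjusted p = 0.12) without against with glutamine and 0.38 (adjusted p = 0.097) for AKG against no glutamine, and Slco2a1, whose groups overlapped, had -1.91 (adjusted p = 0.16). None of the 6 other lipoxygenase genes listed, Alox12 and Alox15 among them, passed the filter on low counts in either table.

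Markers of stromal fibroblasts moved with the glutamine groups. Of 12 such genes 10 were tested, and 7 were lower without than with glutamine, 10 with the block. For AKG against no glutamine 0 were called, and 8 were higher with the block; for AKG against glutamine 0 were called, and 9 were lower with the block. Their summed level was 118 to 426 CPM with AKG and no glutamine, 52.2 to 219 CPM without glutamine and 434 to 2250 CPM with glutamine, and no gene of the list was at 0. Within the glutamine group the sum was 434 and 471 CPM in replicates 1 and 2 and 2250 and 2220 CPM in replicates 3 and 4, where Ptgs1 had 41.2, 36.6, 36.9 and 34.6 CPM and Hpgd 21.9, 16.8, 19.0 and 23.9 CPM. With batch as a term, replicates 3 and 4 minus 1 and 2 gave 1.275 (Pdgfra) to 2.27 (Postn) on the log2 scale for the tested stromal markers. The same difference was 1.88 for Slco2a1, 0.98 for Ptges, 0.15 for Hpgd and 0.05 for Ptger2. For Ptgs1 it was -0.12, for Alox5ap -0.22 and for Alox5 -1.28. The part of stromal cells in the differences of Ptgs1, Hpgd, Ptges, Ptger2, Alox5, Alox5ap and Slco2a1 was not tested. Mast cell and basophil markers summed to 0.950 to 4.41 CPM with AKG, 0.947 to 5.57 CPM without glutamine and 1.19 to 1.39 CPM with glutamine, with 6 of 11 never reaching 10 counts, and neutrophil markers to 1.99 to 3.88, 2.18 to 7.25 and 3.64 to 5.96 CPM in the same order. Eosinophil markers summed to 72.3 to 90.1 CPM with AKG, 19.1 to 55.8 CPM without glutamine and 48.7 to 64.4 CPM with glutamine, and Il5ra was at 0 in all of them. Endothelial, epithelial and platelet markers summed to 273 to 362 CPM with AKG, 313 to 422 CPM without glutamine and 335 to 540 CPM with glutamine. Dendritic cell markers stayed at 1.38 to 2.09 CPM, and lymphocyte and NK cell markers at 0.162 to 0.710 CPM, in all tolerant libraries.

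**Figure D4:**
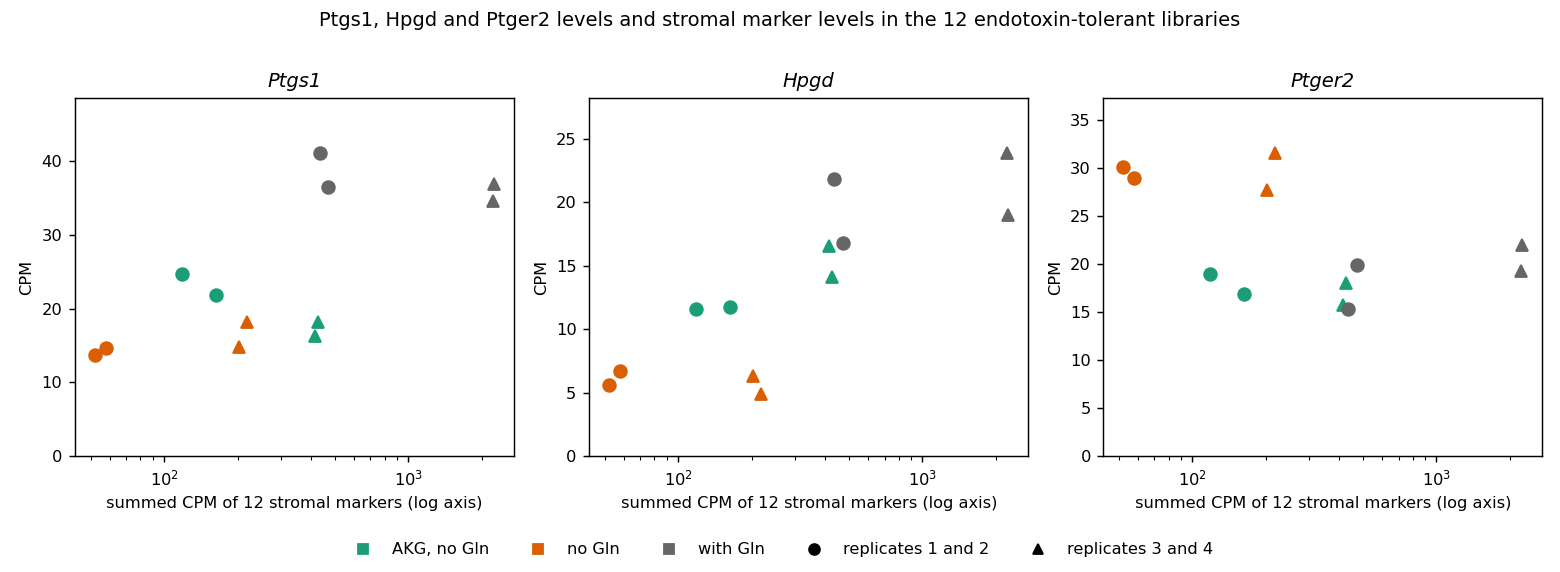
CPM of Ptgs1, Hpgd and Ptger2 against the summed CPM of 12 stromal fibroblast markers (log axis) in the 12 tolerant libraries, coloured by group, circles for replicates 1 and 2 and triangles for 3 and 4. At each replicate number the sum is lowest without glutamine and highest with glutamine, and within each group it is higher in replicates 3 and 4 than in replicates 1 and 2.

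Genes with the most similar course were sought among 9621 genes (mean log2 CPM 2 or more) over the 12 tolerant libraries, after each batch mean was subtracted from the log2 CPM, and the Pearson r is a description, since the libraries share batch, depth and group. Closest to Hpgd were Nhsl2 (r = 0.98), Man1a (r = 0.98) and Etl4 (r = 0.98). Closest to Alox5 were Acap3 (r = 0.97), Gpc1 (r = 0.97) and Pon2 (r = 0.95). Closest to Ptgs2 were Lpgat1 (r = 0.94), Ptp4a1 (r = 0.94) and Ndufaf4 (r = 0.92).

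The stimulation set gives the early response to the cytokine of alternative activation and to endotoxin. With LPS, as against controls, genes of the prostaglandin E arm rose at several steps: Ptges rose 431.5-fold and Ptgs2 73.3-fold, Ptger4 rose 2.23-fold and Ptger2 1.73-fold, while Hpgd fell 29.3-fold, Ptgs1 9.95-fold, Alox5 8.18-fold and Alox5ap 2.06-fold. These 8 of 10 genes stand against 52.1% of all 12506 genes tested, 4 higher against 22.8% and 4 lower against 29.3%. With IL-4, Ptgs1 rose 6.97-fold and Ltc4s 2.03-fold, while Alox5 fell 6.21-fold, Ptges 4.38-fold, Hpgd 2.21-fold, Ptger4 2.13-fold and Alox5ap 1.91-fold, 7 of 10 genes against 20.1% of all genes, 2 higher against 9.66% and 5 lower against 10.5%. Between IL-4 and LPS 7 of the 10 differed, 3 higher against 29.7% of all genes and 4 lower against 23.4%, or 53.1% in either direction. The median log2 fold change of the 10 was -1.01 with IL-4 against -0.04 over all genes, and -0.82 with LPS against -0.10. IL-4 and LPS share the control libraries, so their values are set side by side only. With LPS 2856 genes were called higher and 3663 lower. Scaling by library totals in place of TMM moved the median of all genes with LPS from -0.10 to -0.55 and gave 1609 higher and 6407 lower. For IL-4 against LPS the same change moved that median from 0.10 to 0.58 and the calls from 3714 higher and 2927 lower to 6565 higher and 1694 lower. Changes are given on the TMM scale.

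**Figure D5:**
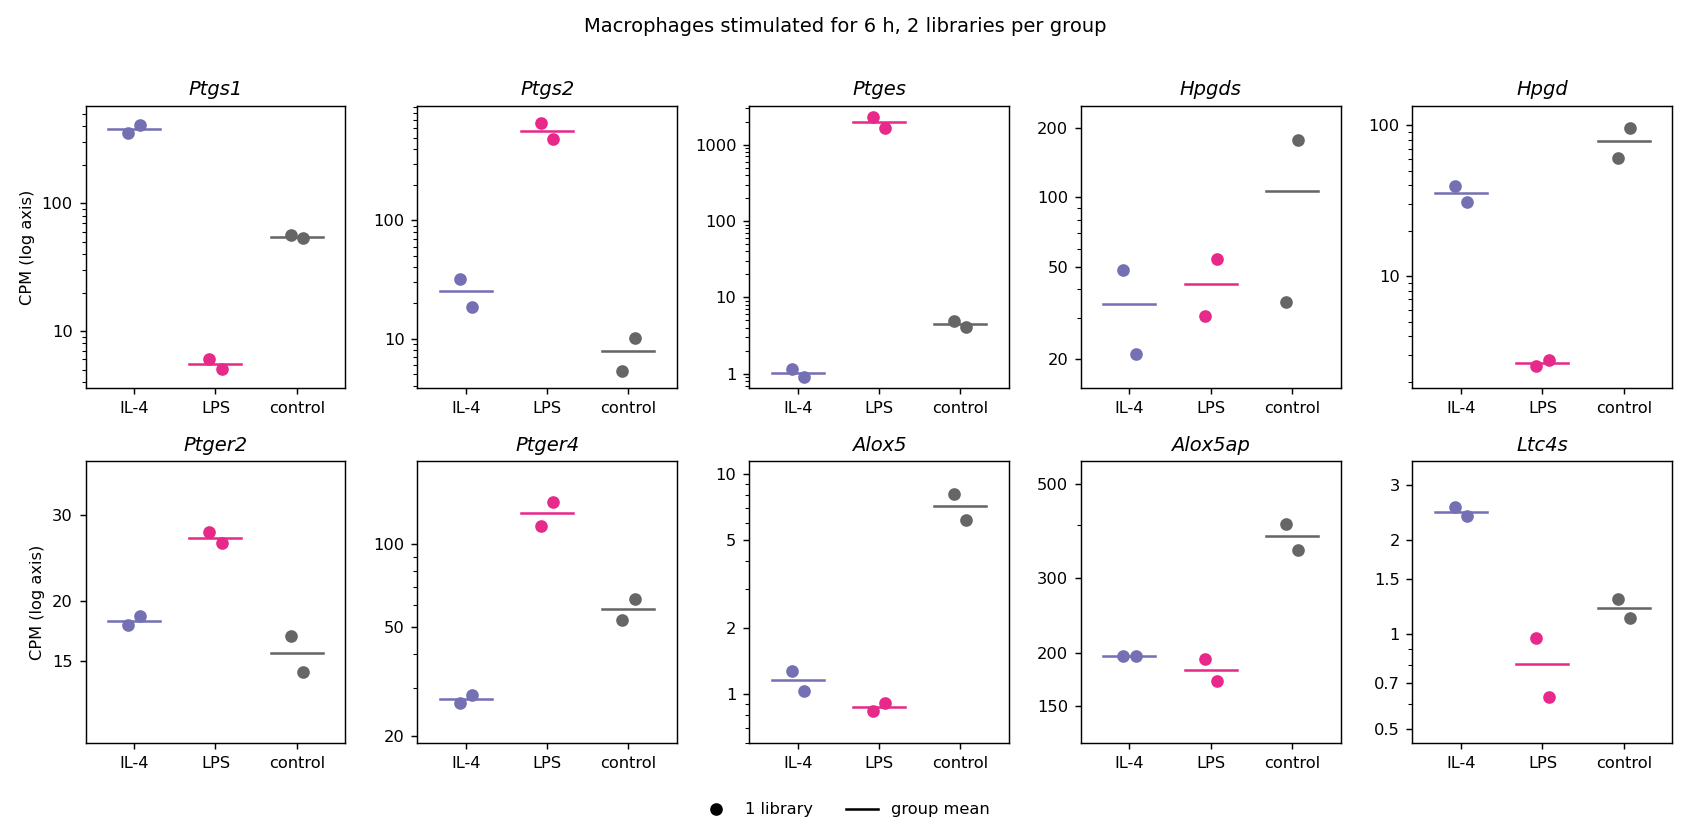
CPM of the 10 genes in each of the 6 stimulation libraries (log axes), with IL-4 at the left, LPS in the middle and controls at the right; points are libraries and lines group means. Ptgs2 and Ptges are highest with LPS, Ptgs1 is highest with IL-4 and lowest with LPS, and the 2 control libraries differ most for Hpgds, at 35.3 and 178 CPM.

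The cyclooxygenase genes went opposite ways with LPS. Ptgs1 had 354 and 413 CPM with IL-4, 6.02 and 5.03 CPM with LPS, and 56.9 and 53.2 CPM in controls. The 3 groups were far apart: log2 fold changes were 2.80 (SE 0.14, adjusted p = 0.00024) with IL-4 and -3.32 (SE 0.15, adjusted p = 3.8e-05) with LPS against controls, and 6.12 (SE 0.17, adjusted p = 1.1e-05) for IL-4 against LPS. Ptgs2 had 32.2 and 18.4 CPM with IL-4, 661 and 483 CPM with LPS, and 5.38 and 10.2 CPM in controls. LPS stood far above both other groups, 6.20 higher on the log2 scale than controls (SE 0.52, adjusted p = 0.00071), and both IL-4 libraries lay above both controls. For IL-4 the difference of 1.69 (SE 0.44, adjusted p = 0.060) did not pass, though DESeq2 (adjusted p = 8.8e-05) and limma-voom (adjusted p = 0.038) called it. Between IL-4 and LPS the difference was -4.50 (SE 0.48, adjusted p = 0.0014).

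Ptges had 1.17 and 0.919 CPM with IL-4, 2282 and 1655 CPM with LPS, and 4.97 and 4.15 CPM in controls. Its rise with LPS, 8.75 on the log2 scale (SE 0.27, adjusted p = 2.6e-05), ranked 15 among 12506 genes. With IL-4 it fell by 2.13 (SE 0.24, adjusted p = 0.0025), and IL-4 against LPS gave -10.88 (SE 0.29, adjusted p = 1.1e-05), the third lowest value of all genes. Hpgds had 48.4 and 20.9 CPM with IL-4, 30.5 and 53.9 CPM with LPS, and 35.3 and 178 CPM in controls. Its 3 groups overlapped, and no comparison passed (adjusted p = 0.29 with IL-4 and 0.26 with LPS).

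The dehydrogenase gene Hpgd had 39.7 and 31.1 CPM with IL-4, 2.54 and 2.79 CPM with LPS, and 60.5 and 96.0 CPM in controls. The groups did not overlap. With LPS it fell by 4.87 (SE 0.30, adjusted p = 0.00014), the rank 49 from the bottom of all genes. With IL-4 it fell by 1.14 (SE 0.25, adjusted p = 0.030), a call lost without IL-4 replicate 1 (adjusted p = 0.080), without IL-4 replicate 2 (adjusted p = 0.15) and with these 2 groups alone (adjusted p = 0.074). Against LPS, Hpgd was 13.25-fold higher with IL-4 (log2 fold change 3.73, SE 0.29, adjusted p = 0.00026).

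Ptger4 had 26.4 and 28.3 CPM with IL-4, 116 and 143 CPM with LPS, and 52.9 and 63.4 CPM in controls. The receptor gene was lowest with IL-4 and highest with LPS, with log2 fold changes of -1.09 (SE 0.15, adjusted p = 0.0052) and 1.16 (SE 0.15, adjusted p = 0.0013), and the IL-4 call was lost without IL-4 replicate 1 (adjusted p = 0.055). Between IL-4 and LPS it differed by -2.24 (SE 0.15, adjusted p = 0.00011). Ptger2 had 17.8 and 18.5 CPM with IL-4, 27.7 and 26.3 CPM with LPS, and 16.9 and 14.2 CPM in controls. It rose with LPS by 0.79 (SE 0.12, adjusted p = 0.0024), but by library totals the difference was 0.34 (adjusted p = 0.053). With IL-4 it differed from controls by 0.22 (SE 0.12, adjusted p = 0.26). Against LPS it was lower with IL-4 (-0.57, SE 0.12, adjusted p = 0.0085), a call lost by library totals (-0.09, adjusted p = 0.54) and without LPS replicate 1, IL-4 replicate 1 or IL-4 replicate 2 (adjusted p = 0.056, 0.070 and 0.053).

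In the leukotriene arm Alox5 had 1.27 and 1.03 CPM with IL-4, 0.835 and 0.908 CPM with LPS, and 8.13 and 6.17 CPM in controls, or 46 to 49, 24 to 26 and 263 to 339 counts. Both stimulated groups lay below both controls, with log2 fold changes of -2.64 (SE 0.22, adjusted p = 0.00088) with IL-4 and -3.03 (SE 0.23, adjusted p = 0.00019) with LPS. The fall with IL-4 was the rank 48 from the bottom of all genes. Alox5ap had 197.2 and 197.1 CPM with IL-4, 193 and 172 CPM with LPS, and 403 and 349 CPM in controls. It fell by 0.93 (SE 0.12, adjusted p = 0.0038) with IL-4 and by 1.04 (SE 0.12, adjusted p = 0.00077) with LPS. Ltc4s had 2.54 and 2.38 CPM with IL-4, 0.974 and 0.629 CPM with LPS, and 1.30 and 1.13 CPM in controls. It rose with IL-4 by 1.02 (SE 0.23, adjusted p = 0.030), a call lost without either IL-4 library (adjusted p = 0.17 and 0.14) or without control replicate 2 (adjusted p = 0.060). With LPS the difference of -0.59 (SE 0.26, adjusted p = 0.11) did not pass, though by library totals it did (-1.05, adjusted p = 0.013). Between IL-4 and LPS Ltc4s was 1.61 higher (SE 0.25, adjusted p = 0.0028), while Alox5 (0.40, SE 0.25, adjusted p = 0.23) and Alox5ap (0.11, SE 0.12, adjusted p = 0.47) passed only by library totals (0.87 and 0.59, adjusted p = 0.024 and 0.0048).

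Of the 61 further pathway genes 40 were tested in the stimulation set, and with LPS 8 rose and 14 fell (55%, against 52.1% of all genes). The 14 include Mgst2, with means of 0.157 CPM with LPS and 0.593 CPM in controls. It passed the filter on low counts only through the controls, so its fall is a description only. Pla2g4a, named after its values were seen, encodes the cytosolic phospholipase that frees arachidonic acid and rose by 3.49 (SE 0.37, adjusted p = 0.0013), with means of 318.5 CPM with LPS and 28.4 CPM in controls, while Daglb, a diacylglycerol lipase gene, fell by 3.38 (SE 0.12, adjusted p = 2.7e-05) and Pla2g5, a secreted phospholipase gene, by 2.74 (SE 0.30, adjusted p = 0.00069). Ptges3, the cytosolic prostaglandin E synthase gene, rose by 1.21 (SE 0.11, adjusted p = 0.00036) and Abcc4, a prostaglandin exporter gene, by 1.78 (SE 0.10, adjusted p = 8.1e-05). Of the 7 other prostanoid synthase and reductase genes tested, Ptges3 among them, 1 rose and 3 fell. Ptgr2, which encodes a reductase that acts after the Hpgd enzyme, fell by 1.33 (SE 0.16, adjusted p = 0.00095). Lta4h, the leukotriene B synthesis gene, fell by 0.90 (SE 0.09, adjusted p = 0.00047) and Fpr2, the lipoxin and formyl peptide receptor gene, rose by 7.06 (SE 0.22, adjusted p = 2.6e-05).

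With IL-4 9 of the 40 rose and 10 fell (47.5%, against 20.1% of all genes), and the median was -0.16 against -0.04. The counts were 8 and 1 without IL-4 replicate 1 and 8 and 3 without IL-4 replicate 2. The 10 include Mgst2, at means of 0.173 CPM with IL-4 and 0.593 CPM in controls. It passed the filter on low counts only through the controls, so its fall is a description only. The thromboxane synthase gene Tbxas1 rose by 1.23 (SE 0.09, adjusted p = 0.00064), with means of 447 CPM with IL-4 and 191 CPM in controls. The prostacyclin receptor gene Ptgir rose by 2.07 (SE 0.11, adjusted p = 0.00027) with IL-4 and by 1.50 (SE 0.11, adjusted p = 0.00015) with LPS. The leukotriene B receptor gene Ltb4r1 rose by 5.28 (SE 0.27, adjusted p = 0.00025), with means of 3.81 CPM with IL-4 and 0.0949 CPM in controls. With LPS its mean was 0.139 CPM, so it passed the filter on low counts only through the IL-4 libraries. Its rise, counted among the 9, and its difference from LPS, counted among the 15 given below, are therefore descriptions only. Cysltr2, a cysteinyl leukotriene receptor gene, rose by 1.34 (SE 0.22, adjusted p = 0.0092), and Ggt5, which encodes an enzyme that converts leukotriene C to leukotriene D, by 3.11 (SE 0.26, adjusted p = 0.00091). Fpr2 fell by 2.10 (SE 0.23, adjusted p = 0.0026) with IL-4, and Mgst3, which encodes a microsomal glutathione transferase, by 0.97 (SE 0.13, adjusted p = 0.0044). Pla2g7, the gene of the platelet-activating factor hydrolase, fell by 0.83 (SE 0.10, adjusted p = 0.0039), and Abcc1, a leukotriene C exporter gene, by 0.69 (SE 0.13, adjusted p = 0.016). Dpep2, a leukotriene D dipeptidase gene, fell by 0.61 (SE 0.11, adjusted p = 0.012) and Ptgr1, a prostaglandin reductase gene, by 0.55 (SE 0.10, adjusted p = 0.013). With LPS against controls Mgst3 also fell, by 0.98 (SE 0.13, adjusted p = 0.0015), while Abcc1 rose by 0.93 (SE 0.13, adjusted p = 0.0019). Between IL-4 and LPS 15 of the 40 were higher and 13 lower with IL-4 (70%, against 53.1% of all genes), the widest being Fpr2 at -9.16 (SE 0.25, adjusted p = 1.1e-05).

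Other cell types were looked for beside these results. Mast cell and basophil markers summed to 5.56 to 5.76 CPM with IL-4, 24.0 to 39.5 CPM with LPS and 2.11 CPM in both controls. Most of the LPS sum was Hdc, at a mean of 29.6 CPM, while Cma1, Mcpt4, Tpsab1 and Tpsb2 were at 0 in every stimulation library. Eosinophil markers summed to 16.4 to 22.4 CPM with IL-4, 103 to 118 CPM with LPS and 16.1 to 28.7 CPM in controls, of which Ccr3 made up a mean of 107 CPM with LPS, while Epx, Il5ra and Prg2 never reached 10 counts. Neutrophil markers summed to 3.53 to 3.56, 13.7 to 18.2 and 3.57 to 3.86 CPM in the same order, with Ly6g at 0. Stromal markers summed to 99.5 to 108 CPM with IL-4, 128 to 147 CPM with LPS and 139 to 145 CPM in controls. Endothelial, epithelial and platelet markers summed to 296 to 322 CPM with IL-4, 185 to 202 CPM with LPS and 129 to 144 CPM in controls. Of 8 such genes 5 were tested, with 3 higher and 1 lower with IL-4 and 2 higher and 2 lower with LPS. The endothelial marker Pecam1 averaged 105 CPM with IL-4, 0.994 CPM with LPS and 4.87 CPM in controls, and the platelet marker Pf4 averaged 124, 169.6 and 81.8 CPM in that order, while the platelet marker Gp9 never reached 10 counts. Dendritic cell markers summed to 7.02 to 7.58 CPM with IL-4, 5.62 to 5.81 CPM with LPS and 1.46 to 1.59 CPM in controls, of which Zbtb46 averaged 5.03 CPM with IL-4 and Xcr1 4.57 CPM with LPS. The part of such cells in the values of Ptgs1 and Tbxas1, which platelets also express, and of Ltc4s, Alox5 and Hpgds, which mast cells also express, was not tested.

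Some of the 10 genes overlap other annotated genes, and the strand setting of the counting was not stated in these sources. On the same strand Ptges overlaps Gm13400 and Hpgd overlaps Gm45540, and on the other strand Ptgs1, Hpgds, Ptger2, Ptger4, Alox5ap and Ltc4s overlap 1 or 2 genes each, Ttc33 for Ptger4. Ptgs2 and Alox5 overlap none.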

How the data were processed

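The deposited tables hold raw counts per gene, counted by the authors; the submitters' processing notes name HTSeq, STAR and the mm10 build, and the labels' protocols a stranded TruSeq kit. Not given in the sources used here were tool versions and the strand setting. The genes and all gene lists were chosen with earlier results of these data known. The 2 tables were fitted separately, all groups together, with edgeR 4.0.16 in R 4.3.3, using filterByExpr, TMM scaling and the robust quasi-likelihood F test, with Benjamini-Hochberg adjustment over all genes tested and calls at an adjusted p under 0.05. SE is that of the log2 fold change. CPM are counts per 1e6 of the TMM-scaled library size. On simulated data the tests recovered most of the large changes and few or none of the smallest, and in the stimulation set the share of false calls was above the nominal rate. Further pathway genes are named from fixed lists, at most 4 called genes per list and comparison by smallest p, and others are marked as chosen later.

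As alternatives, DESeq2 1.42.0, limma-voom (limma 3.58.1), size factors by RLE, tests without a filter or with one at 1 CPM, only the 2 groups compared, the replicate block, batch as a term, each batch alone and the omission of each library were used. Library totals without TMM and a crossed pairing were added after seeing the data. In the tolerant set same-numbered libraries deviated together in all 12 pairs (correlations of 0.501 to 0.823), and the number was used as a pairing. The batch alone could produce such correlations. They were not set against those of differently numbered libraries of a batch, so they cannot show pairing. The labels do not say what it marks. In the stimulation set same-numbered libraries of control and LPS deviated together (0.501), while those of IL-4 ran opposite to both (-0.662 and -0.366). The number was therefore not used as a pairing there. Positions and exon lengths are from GENCODE vM21 (GRCm38), promoters from RefSeq (GRCm38.p6), where 9 of the 10 genes matched by symbol. Figures were drawn with matplotlib 3.10.9 in Python 3.11.15.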

Additional observations from a re-analysis of the deposited data

Results flagged for a closer look

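In cells with AKG and no glutamine, replicate 2 stood apart from the other 3 libraries for Ptgs2, at 33.3 CPM against 52.5 to 55.4 CPM. Of 30 groups of 4 libraries examined for the 10 genes this was the only such case, and chance gives about 1 such case in 20 groups.

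The difference of Ptger4 between AKG and glutamine was not the same in the 2 batches: the interaction of the comparison with batch was -0.63 on the log2 scale (SE 0.11, edgeR adjusted p = 0.029), replicates 3 and 4 minus replicates 1 and 2. Ptger4 had 131 and 130 CPM with AKG and 93.5 and 83.6 CPM with glutamine in replicates 1 and 2, and 52.8 and 54.5 CPM with AKG and 59.6 and 52.8 CPM with glutamine in replicates 3 and 4. Over all 12492 genes 201 had such an interaction in that comparison.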

How the results depend on the processing

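Of 400 alternative values for the 28 called fold changes of the 10 genes, 376 kept direction and call, 24 lost the call and 0 changed sign. Of 554 for the 32 uncalled ones, 470 stayed uncalled with the same sign, 44 passed and 40 changed sign. The cause of these shifts was not tested. The 4 and 2 libraries per group, and counts as low as 5 for Ltc4s, limit the precision.

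Without against with glutamine 587 genes were called. The count was 1260 with DESeq2, 243 with only the 2 groups, 2707 with the replicate block, 3090 with the batch term, 3526 in replicates 1 and 2 alone, 1670 in replicates 3 and 4 alone and 229 to 468 with 1 library left out, where it was more than 1.5 times lower without replicates 1 or 2 of the group without glutamine or 3 or 4 of the group with glutamine. AKG against no glutamine had 186 genes, with 123 without a filter, 682 with DESeq2, 60 with only the 2 groups, 1917 with the block, 2312 with the batch term, 2908 and 703 in replicates 1 and 2 or 3 and 4 alone and 28 to 116 with any of the 8 libraries left out. Of the 10 genes, 2 were called there, 4 with the block, 5 with the batch term and 6 in replicates 1 and 2 alone. AKG against glutamine had 0 genes, with 232 under DESeq2, 876 with the block, 1133 with the batch term, 1433 and 790 in replicates 1 and 2 or 3 and 4 alone and 4 by library totals, among them 2, 3, 3, 5, 2 and 1 of the 10 genes. IL-4 against control had 2518 genes, 944 to 2751 with 1 library left out, the lowest being 944 and 972 without IL-4 replicate 1 or 2, and 4 to 8 of the 10 genes against 7 with all libraries.

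In the tolerant set the block changed no call of the 10 genes beyond those given with it in the report. In the stimulation set same-numbered libraries did not deviate together in all groups: correlations were 0.501 for control with LPS, -0.662 for control with IL-4 and -0.366 for LPS with IL-4. The replicate block gave 1961 genes for IL-4 and 6038 for LPS against control and 6100 for IL-4 against LPS, and 6, 8 and 7 of the 10 genes, with the Hpgd call for IL-4 lost (adjusted p = 0.073). With the numbers crossed in IL-4 the counts were 3965, 7964 and 8023, with 9, 9 and 7 of the 10.

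Changes of sign fell on uncalled values. Without against with glutamine Ptgs2 was 0.0057 with the batch term and 0.15 in replicates 1 and 2 alone, and Ptger4 was 0.11 there. For AKG against glutamine, replicates 1 and 2 alone gave Hpgds -0.050 and Ptger2 0.021, and replicates 3 and 4 alone gave Ptger4 -0.037 and Alox5ap 0.018. Hpgds for IL-4 against LPS was 0.19 by library totals. With 1 library left out, the ranges were Ptgs2 -0.21 to 0.17, Hpgds -0.60 to 0.032, Ptger4 -0.24 to 0.14 and Ltc4s -0.46 to 0.46 without against with glutamine, Alox5 -0.38 to 0.24 and Ltc4s -0.37 to 0.56 for AKG against no glutamine, Ptges -0.052 to 0.36, Hpgds -0.18 to 0.27 and Ltc4s -0.21 to 0.40 for AKG against glutamine, and Hpgds -1.98 to 0.26 for LPS against control and -1.01 to 0.20 for IL-4 against LPS.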
